A study of Homo sapiens with 4 samples.

Results

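Proteasome genes were described here across 4 whole-transcript expression arrays of 2 cultured human cell lines. They were taken by symbol: every transcript cluster of the array with exactly 1 gene symbol, where that symbol began with PSMA, PSMB, PSMC, PSMD, PSME, PSMF or PSMG and a number. This gave 52 genes out of 22393 with a single-symbol cluster, each with 1 cluster. Of the 52, 45 code for subunits, activators, an inhibitor or assembly factors of the proteasome, and 44 of these were among the 16790 genes bright enough to be tested. The 45th, PSMB11, was too dim. The other 7 share only the name and are described apart. PSMC5, PSMD7 and PSMD13, a regulatory ATPase and 2 regulatory non-ATPase subunits, were not analysed here.

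The samples were OPM2 cells without an agent, OPM2 cells given KPT-9274 for 48 h, and the same pair for cells labelled KMS11, with 1 array for each. OPM2 and KMS11 are the names of human myeloma lines, and KPT-9274 is an inhibitor of both PAK4, a kinase, and NAMPT, an enzyme of NAD salvage. The labels give neither the dose, nor a time for the untreated cells, nor the number of cultures, so the effects of 48 h in culture and of the compound cannot be told apart. Each group has 1 array, which leaves changes within a line unreplicated, and p-values measure only the spread between these 4 arrays.

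The proteasome is the barrel-shaped protease that degrades ubiquitin-tagged proteins. Its core is built of rings of alpha and beta subunits, and 3 of the beta subunits (PSMB5, PSMB6 and PSMB7) carry the active sites. A regulatory particle of ATPases (the PSMC genes) and non-ATPases (most PSMD genes) binds, unfolds and feeds substrates into the core. In immune cells and after interferon, PSMB8, PSMB9 and PSMB10 replace the standard active subunits, and the activator formed by PSME1 and PSME2 caps the core. Plasma cells and myeloma cells make much secretory protein and are known to depend on the proteasome, which is the target of bortezomib.

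All levels below are log2 signals as the authors deposited them, and a change is the treated minus the control array of a line, so a change of 1 is 2-fold. The median over all clusters was 5.68 to 5.76 on 3 arrays and 6.07 on the treated OPM2 array. Background was set at the 95th percentile of 366 olfactory receptor genes, which was 6.62 before and 7.39 after treatment in OPM2 and 6.33 before and 6.48 after treatment in the cells labelled KMS11. The raised level on the treated OPM2 array touches every change in OPM2, and its part in them was not tested. Of the 45 proteasome genes, 44 exceeded background in both controls, 40 in treated OPM2 cells and 43 in treated cells labelled KMS11.

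The cells labelled KMS11 did not carry the plasma cell profile of their label. Of 11 plasma cell markers, 9 exceeded background in the OPM2 control, 7 in treated OPM2 cells and 4 on each KMS11-labelled array. Their summed level, the log2 of the summed signals, was 17.02 to 17.33 in OPM2 and 11.80 to 12.12 in the cells labelled KMS11. Such a sum follows mainly the brightest markers of a list. JCHAIN, the brightest of them, read 16.99 and 16.88 in OPM2 and 9.94 and 10.68 in the cells labelled KMS11. PRDM1, the master regulator of plasma cells, read 12.47 and 12.29 in OPM2 and 5.99 and 6.36, under background, in the cells labelled KMS11. XBP1 differed less, with 12.39 and 10.99 in OPM2 and 11.49 and 10.35 in the cells labelled KMS11. Of 7 measured erythroid and megakaryocyte markers, 6 were above background on each KMS11-labelled array, with summed levels of 16.46 to 16.59 against 9.04 to 9.17 in OPM2. Of 9 measured myeloid markers, 5 were above background on each KMS11-labelled array, with summed levels of 16.67 to 16.93 against 8.74 to 9.04 in OPM2, while MPO, ELANE, CSF1R and CEBPE were under background on all 4 arrays. The part of cell type in the differences between the lines was not tested. The cells are called KMS11-labelled below.

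**Figure D1:**
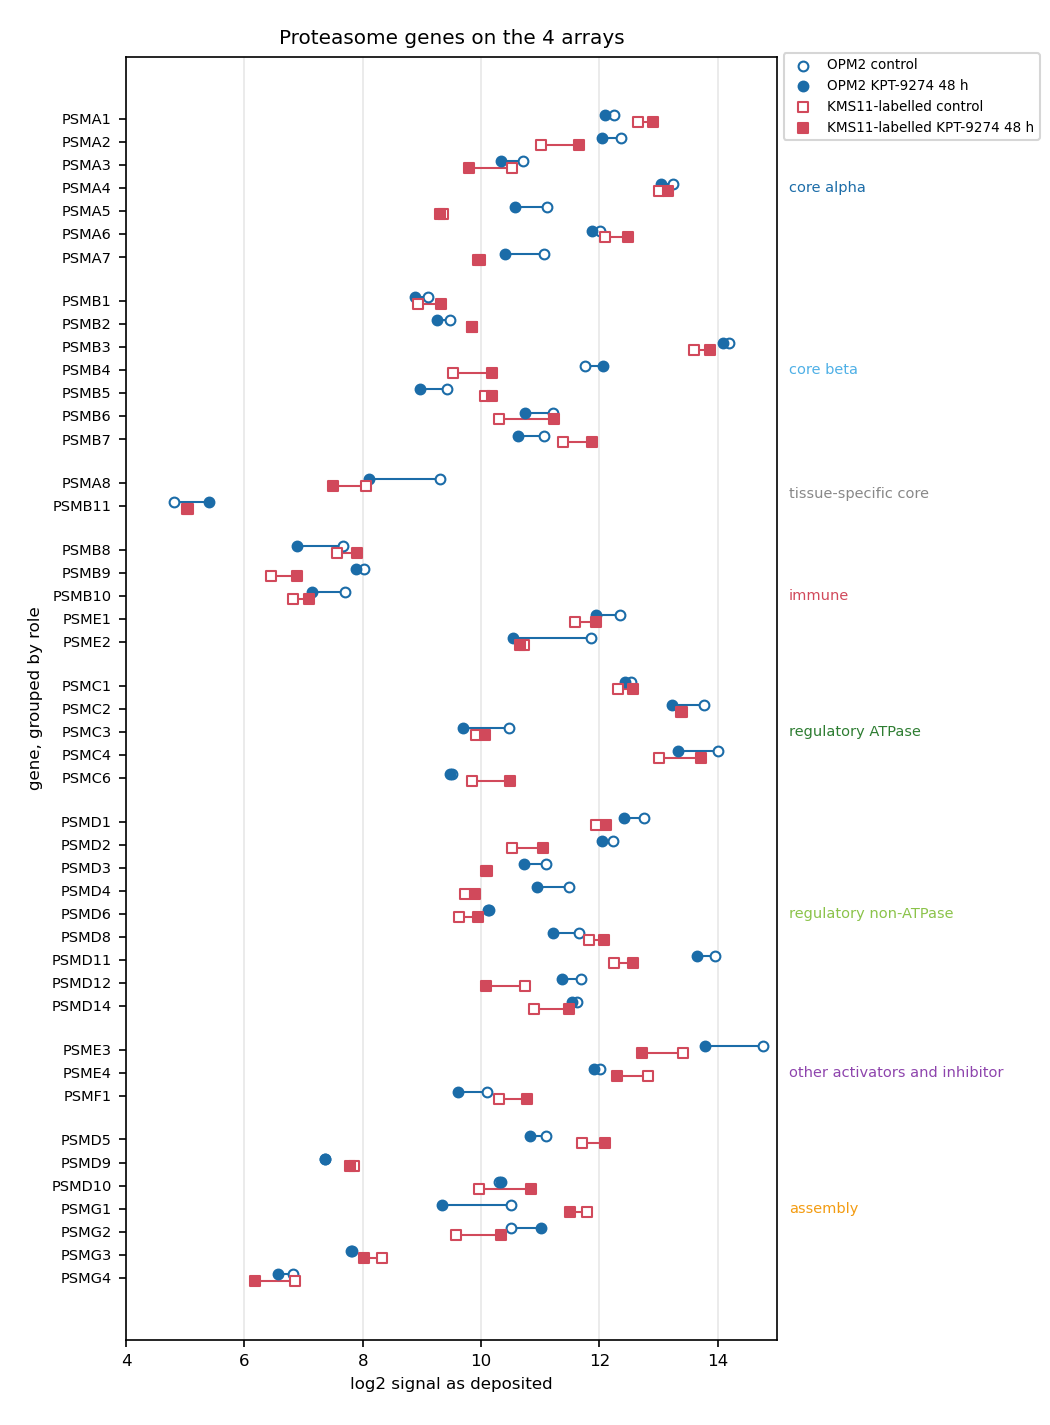
Log2 signal (x axis, as deposited) of the 45 proteasome genes (y axis, grouped by role) on each of the 4 arrays. Open symbols are controls, filled symbols are cells given KPT-9274 for 48 h, circles are OPM2, squares are KMS11-labelled, and a line joins the arrays of 1 line of cells. Levels can be compared between arrays within a row but not between rows. Filled circles lie left of open circles in most rows, and filled squares lie right of open squares in most rows of the core, immune and regulatory genes.

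The first comparison asks how proteasome transcripts differed after 48 h of KPT-9274. Nearly all of them read slightly lower after treatment in OPM2 and most read slightly higher in the KMS11-labelled cells. In OPM2 40 of 44 subunits read lower (90.9%), with a median change of -0.32. For 4 of the 40, PSMB8, PSMB10, PSMD9 and PSMG4, the treated value was under background, and with the first pair at their bounds and the second left out the median was -0.31. This compares with 47.5% of all 16790 genes tested and a median of 0.03. In the KMS11-labelled cells 33 of 44 read higher (75.0%), with a median of 0.26, against 54.5% and 0.04 for all genes. Both held at once for 29 of 44 subunits (65.9%), against 19.2% of all genes. The remaining subunits comprised 11 that read lower in both lines and 4 that read higher in both, against 4682 and 5857 of all 16790 genes.

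Signal level moved with this pattern. Of the 44 subunits, 37 had a mean signal above 9. Among the 4607 genes tested above that level, 66.1% read lower in OPM2 (median -0.23) and 49.7% read higher in the KMS11-labelled cells (median 0.00), while 24.9% did both. Among those 37 subunits 33 read lower in OPM2 (median -0.33), 30 read higher in the KMS11-labelled cells (median 0.26), and 26 did both. The OPM2 median of the bright subunits differed by -0.10 from that of the genes above the same level, and their KMS11-labelled median by 0.26.

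Scaling bears on these sizes. Other ways to scale the arrays shifted the OPM2 median of all genes tested from 0.03 as deposited to -0.17 under quantile normalization, -0.29 under median centring and -0.18 after cyclic loess, while the KMS11-labelled median stayed between -0.04 and 0.05. Relative to all genes, the OPM2 median of the subunits was -0.35 as deposited, -0.19 under quantile normalization, -0.35 under median centring and -0.14 after cyclic loess. The same value for the KMS11-labelled cells was 0.22, 0.33, 0.21 and 0.34. The share of all genes that read lower in OPM2 was 68.5%, 76.6% and 69.3% under the 3 scalings, against 88.6%, 97.7% and 88.6% of subunits. In the KMS11-labelled cells 56.7%, 43.6% and 50.2% of all genes read higher, against 81.8%, 65.9% and 79.5% of subunits.

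**Figure D2:**
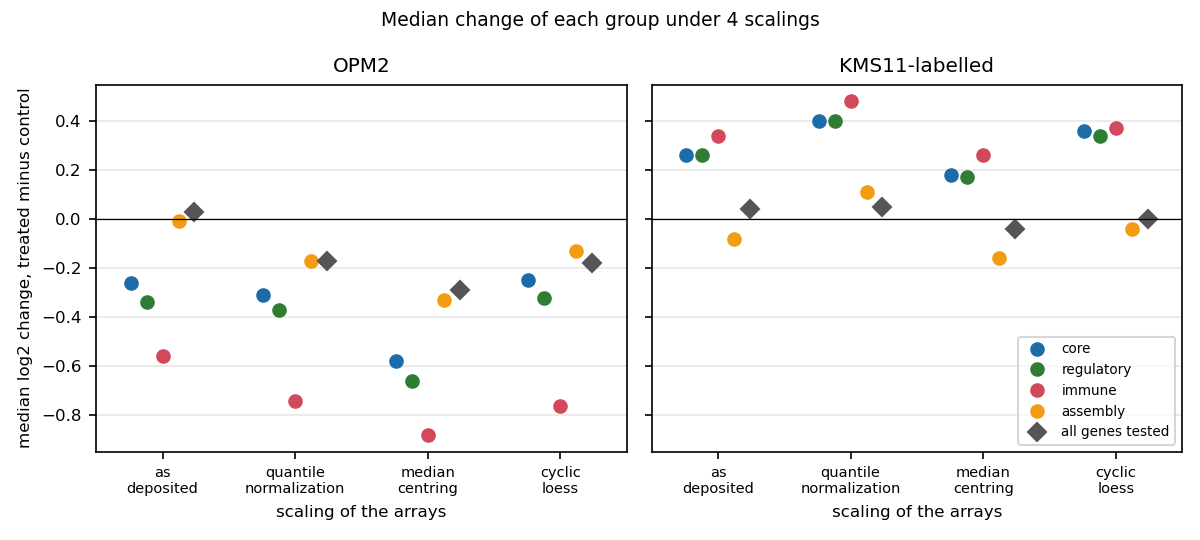
Median log2 change after treatment (y axis) of the core (14 genes), regulatory (14), immune (5) and assembly (7) classes and of all genes tested (diamonds), in OPM2 on the left and in the KMS11-labelled cells on the right, under 4 scalings of the arrays (x axis). In OPM2 the medians of all 4 classes lie below 0 under each scaling, and that of all genes does so except as deposited. Relative to all genes, the OPM2 core median is -0.29 as deposited, -0.14 (quantile), -0.29 (median centring) and -0.07 (cyclic loess). The same values for assembly are -0.04, 0.00, -0.04 and 0.05. In the KMS11-labelled cells core, regulatory and immune medians lie above 0 under each scaling, while the assembly median changes sign.

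None of these changes passed a test. By limma with the line as a block, 0 of the 44 subunits and 0% of all genes passed at an adjusted p below 0.05, and the smallest adjusted p of a subunit was 0.334. At an unadjusted p below 0.05 there was 1 subunit higher (2.27%, against 3.97% of all genes) and 3 lower (6.82%, against 8.65%). At least 2-fold differences were as few: 3 of 44 subunits in OPM2 (6.82%, against 8.03% of all genes) and 0 of 44 in the KMS11-labelled cells (against 6.07%). Among genes above a signal of 9, 14.1% were 2-fold apart in OPM2 and 11.1% in the KMS11-labelled cells. The 37 subunits above that level gave 5.41% and 0%. At an unadjusted limma p below 0.05, 6.97% of those genes were higher and 16.7% lower, against 2.7% and 5.41% of the 37. The opposite signs of the lines are the only residual of the model, so that difference between the lines could not be tested. The arrays measure bulk RNA, in which fewer cells of a kind and less RNA per cell cannot be told apart.

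**Figure D3:**
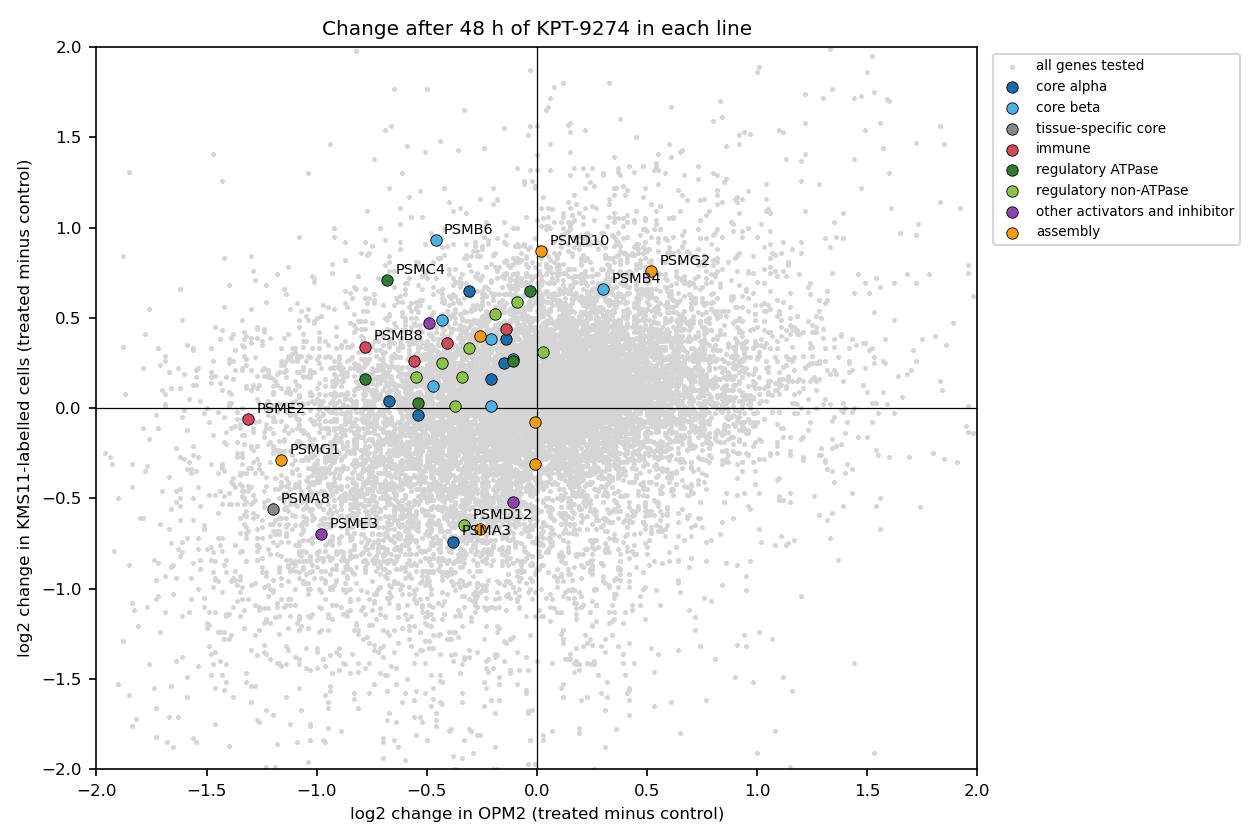
Log2 change after 48 h of KPT-9274 in OPM2 (x axis) against that in the KMS11-labelled cells (y axis), as deposited. Coloured points are the 44 tested proteasome genes by role and grey points are other genes tested, of which 147 beyond 2 on either axis are not drawn. In the upper left part, lower in OPM2 and higher in the KMS11-labelled cells, lie 29 of the 44.

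The alpha ring gates the entry to the core. All 7 alpha subunits, PSMA1 to PSMA7, read lower in OPM2 after treatment (changes of -0.67 to -0.14, median -0.31), and 5 of 7 read higher in the KMS11-labelled cells (-0.74 to 0.65, median 0.16). For this and the next classes, 47.5% of all genes tested read lower in OPM2 and 54.5% higher in the KMS11-labelled cells. Above a signal of 9 these shares were 66.1% (median -0.23) and 49.7% (median 0.00). PSMA2 had the highest mean change over both lines. It read 12.36 in the OPM2 control and 12.05 after treatment, and 11.01 in the KMS11-labelled control and 11.66 after treatment (changes of -0.31 and 0.65). The signs of the lines were opposite, and the levels of the lines were closer after treatment than before. PSMA3 had the lowest mean change, with 10.71 and 10.33 in OPM2 and 10.53 and 9.79 in the KMS11-labelled cells (-0.38 and -0.74, limma adjusted p = 0.396). PSMA3 and PSMA5 (-0.54 and -0.04) were the alpha subunits that read lower in both lines.

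Among the beta subunits, PSMB1 to PSMB7, 6 of 7 read lower in OPM2 (-0.47 to 0.30, median -0.21) and 7 of 7 read higher in the KMS11-labelled cells (0.01 to 0.93, median 0.38). Their OPM2 median was no lower than that of all genes above a signal of 9 (-0.23). The 3 active subunits shared this pattern. PSMB5, which holds the chymotrypsin-like site that bortezomib binds, read 9.43 and 8.96 in OPM2 and 10.07 and 10.19 in the KMS11-labelled cells (changes of -0.47 and 0.12). PSMB6, which holds the caspase-like site, read 11.21 and 10.75 in OPM2 and 10.31 and 11.24 in the KMS11-labelled cells (-0.46 and 0.93). For PSMB7, which holds the trypsin-like site, the readings were 11.06 and 10.63 in OPM2 and 11.38 and 11.87 in the KMS11-labelled cells (-0.43 and 0.49). In OPM2 the changes of the active subunits were nearly equal, and in the KMS11-labelled cells PSMB6 stood apart with the largest change of any subunit there. PSMB4, a structural beta subunit needed to build the ring, was the exception in OPM2. It read 11.76 and 12.06 in OPM2 and 9.53 and 10.19 in the KMS11-labelled cells (0.30 and 0.66, limma adjusted p = 0.431), the highest mean change of the beta class. The lowest was that of PSMB5.

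The regulatory particle showed counts like those of the core. Of the 14 measured subunits, 13 read lower in OPM2 (median -0.34) and 13 read higher in the KMS11-labelled cells (median 0.26). The 5 measured ATPases, PSMC1, PSMC2, PSMC3, PSMC4 and PSMC6, form the ring that unfolds substrates, and all 5 had a negative change in OPM2 (-0.78 to -0.03) and a positive one in the KMS11-labelled cells (0.03 to 0.71). PSMC6 had the highest mean change, with 9.51 and 9.48 in OPM2 and 9.84 and 10.49 in the KMS11-labelled cells (-0.03 and 0.65). The lowest was that of PSMC3, which read 10.48 and 9.70 in OPM2 and 9.91 and 10.07 in the KMS11-labelled cells (-0.78 and 0.16). The OPM2 arrays of PSMC6 were nearly equal, while those of PSMC3 differed more than for any other ATPase.

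Of the 9 measured non-ATPases, PSMD1, PSMD2, PSMD3, PSMD4, PSMD6, PSMD8, PSMD11, PSMD12 and PSMD14, 8 read lower in OPM2 (-0.55 to 0.03) and 8 read higher in the KMS11-labelled cells (-0.65 to 0.59). PSMD14, the enzyme that removes ubiquitin chains from substrates at the entry, read 11.62 and 11.53 in OPM2 and 10.90 and 11.49 in the KMS11-labelled cells. Its mean change was the highest of the class (-0.09 and 0.59). PSMD12, a scaffold subunit of the lid, read 11.69 and 11.36 in OPM2 and 10.74 and 10.09 in the KMS11-labelled cells. Its changes (-0.33 and -0.65, limma adjusted p = 0.422) made it the regulatory subunit with the lowest mean change and the one that read lower in both lines. PSMD6 read higher in both lines, with 0.03 and 0.31.

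The immune class comprised PSMB8, PSMB9 and PSMB10, which take the places of PSMB5, PSMB6 and PSMB7 in the immunoproteasome, and the activator genes PSME1 and PSME2. All 5 read lower in OPM2 (median -0.56, or -0.31 with PSMB8 and PSMB10 at their bounds) and 4 of 5 read higher in the KMS11-labelled cells (median 0.34). Much of this lay close to background. PSMB8 read 7.67 and 6.89 in OPM2 and 7.57 and 7.91 in the KMS11-labelled cells, and since its treated OPM2 value was under background, it was lower there by at least 0.28. PSMB10 read 7.70 and 7.14 in OPM2, the latter under background (lower by at least 0.31), and 6.83 and 7.09 in the KMS11-labelled cells. PSMB9 read 8.02 and 7.88 in OPM2 and 6.45 and 6.89 in the KMS11-labelled cells, above background on all 4 arrays (changes of -0.14 and 0.44).

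PSME1 and PSME2 code for the paired subunits of the interferon-inducible activator and lie near each other on chromosome 14. PSME1 read 12.35 and 11.94 in OPM2 and 11.58 and 11.94 in the KMS11-labelled cells (-0.41 and 0.36). PSME2 read 11.85 and 10.54 in OPM2 and 10.72 and 10.66 in the KMS11-labelled cells (-1.31 and -0.06, limma adjusted p = 0.505). The change of PSME2 was the largest of any subunit within OPM2. After treatment the lines differed by 0.00 for PSME1 and 0.12 for PSME2, whereas the OPM2 control array was the highest of the 4 for both. PSME2P2, by name a pseudogene of PSME2, read 12.40 and 11.04 in OPM2 and 11.26 and 11.24 in the KMS11-labelled cells. Its changes of -1.36 and -0.02 run beside those of PSME2, and signals of near-identical copies may be shared between their clusters, so neither value is certain to belong to its gene alone.

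The ratio of an immune subunit to the one it replaces does not depend on the scaling of an array by a constant. The log2 ratio of PSMB8 over PSMB5 differed after treatment by -0.31 in OPM2 and by 0.22 in the KMS11-labelled cells. The difference was 0.32 and -0.49 for PSMB9 over PSMB6, and -0.13 and -0.23 for PSMB10 over PSMB7. In the KMS11-labelled cells both genes of the second pair read higher, PSMB9 by 0.44 and PSMB6 by 0.93. On the control arrays each ratio was lower in the KMS11-labelled cells, with differences of -0.74, -0.67 and -1.19 in the same order of pairs. There PSMB8, PSMB9 and PSMB10 alone differed by -0.10, -1.57 and -0.87, and PSMB5, PSMB6 and PSMB7 by 0.64, -0.90 and 0.32. The lower PSMB8 ratio thus came mostly from a higher PSMB5. On the treated arrays the difference was -1.48 for PSMB9 over PSMB6. With 2 arrays against 2, an exact two-sided permutation test cannot give a p below 0.333, so none was run. PSMB8 and PSMB10 lay under background on the treated OPM2 array, so their ratios there are upper bounds. For these 2 pairs neither the difference after treatment in OPM2 nor the line difference on the treated arrays has a settled direction. Scaling that depends on signal level also altered the ratios in OPM2, with -0.62 (quantile) and -0.49 (cyclic loess) for PSMB8 over PSMB5 and 0.10 (cyclic loess) for PSMB9 over PSMB6.

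The promoters of the immune class are printed because its members are known to be switched on together by interferon. The windows hold 250 bases before and 50 after an annotated start (RefSeq, GRCh38.p14), and capitals mark matches on either strand to GAAANNGAA, the core of the element that interferon regulatory factors are known to bind. Windows were found for 39 of the 45 genes. They lie at chr6:32843998-32844297 on the minus strand for PSMB8 (the second of 2 annotated starts), chr16:67936801-67937100 on the minus strand for PSMB10, chr14:24135944-24136243 on the plus strand for PSME1, chr14:24146561-24146860 on the minus strand for PSME2 and chr6:32853942-32854241 on the plus strand for PSMB9. TAP1, the peptide transporter gene that runs away from PSMB9 on the opposite strand, is shown for the first of its 2 annotated starts. That window lies at chr6:32853655-32853954 on the minus strand. The other windows of PSMB8 and TAP1 hold no match to GAAANNGAA and are not printed.
PSMB8: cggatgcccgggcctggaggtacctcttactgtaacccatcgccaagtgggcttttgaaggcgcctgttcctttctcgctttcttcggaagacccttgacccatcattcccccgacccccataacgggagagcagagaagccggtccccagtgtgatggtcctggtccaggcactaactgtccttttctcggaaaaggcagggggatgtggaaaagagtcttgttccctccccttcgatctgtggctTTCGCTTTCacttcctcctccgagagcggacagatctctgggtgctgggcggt
PSMB10: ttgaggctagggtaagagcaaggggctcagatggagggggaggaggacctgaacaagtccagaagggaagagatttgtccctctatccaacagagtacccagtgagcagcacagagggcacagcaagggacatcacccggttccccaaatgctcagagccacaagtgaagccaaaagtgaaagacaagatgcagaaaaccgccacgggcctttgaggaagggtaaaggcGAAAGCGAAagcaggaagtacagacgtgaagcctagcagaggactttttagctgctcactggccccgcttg
PSME1: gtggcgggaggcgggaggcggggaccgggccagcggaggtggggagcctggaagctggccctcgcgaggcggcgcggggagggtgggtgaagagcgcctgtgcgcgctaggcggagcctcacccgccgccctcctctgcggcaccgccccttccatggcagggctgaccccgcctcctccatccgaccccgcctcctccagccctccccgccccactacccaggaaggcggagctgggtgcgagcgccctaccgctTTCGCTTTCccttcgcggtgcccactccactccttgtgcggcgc
PSME2: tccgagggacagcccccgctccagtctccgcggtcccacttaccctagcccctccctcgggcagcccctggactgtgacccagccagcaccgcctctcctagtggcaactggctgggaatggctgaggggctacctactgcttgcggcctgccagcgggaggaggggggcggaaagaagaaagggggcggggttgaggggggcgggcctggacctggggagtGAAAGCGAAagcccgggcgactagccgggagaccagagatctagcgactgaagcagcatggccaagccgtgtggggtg
PSMB9: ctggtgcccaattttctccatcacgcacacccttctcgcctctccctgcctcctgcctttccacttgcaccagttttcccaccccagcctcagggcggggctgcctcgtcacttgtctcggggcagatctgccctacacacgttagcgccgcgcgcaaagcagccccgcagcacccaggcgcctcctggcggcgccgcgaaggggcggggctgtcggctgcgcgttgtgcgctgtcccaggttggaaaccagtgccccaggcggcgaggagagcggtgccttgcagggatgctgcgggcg
TAP1: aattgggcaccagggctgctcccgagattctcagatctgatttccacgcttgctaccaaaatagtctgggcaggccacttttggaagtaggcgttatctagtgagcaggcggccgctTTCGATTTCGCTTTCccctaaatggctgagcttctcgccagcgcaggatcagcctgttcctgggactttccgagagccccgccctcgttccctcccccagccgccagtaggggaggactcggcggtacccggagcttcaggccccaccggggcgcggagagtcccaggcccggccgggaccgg

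The match lies within positions -28 to 14 in the windows of PSMB8, PSMB10, PSME1 and PSME2, counted from the annotated start at 0. The PSMB9 window holds no match, while the printed TAP1 window, which overlaps it by 13 bases, holds 2 overlapping matches. Of the 5 immune genes, 4 have a match in a window, against 9.86% of the 27305 genes with a window. The 39 proteasome genes gave 8 (20.5%), with these 4 among them. The rest were 1 of 6 core alpha, 1 of 4 core beta, 1 of 5 ATPase and 1 of 6 assembly genes, and 0 of 8 non-ATPases had a match. For comparison, TGACNNNGC, the core of the antioxidant-type element through which NFE2L1 and NFE2L2 are known to act, was found in windows of 14 of 39 proteasome genes (35.9%) and of 16.1% of all genes. PSMB9, PSME1 and PSME2 hold it among the immune class, as do PSMD5, PSMD9, PSMG1 and PSMG2 among the assembly factors. Both motifs were searched on both strands and separately, so a base may belong to matches of both. A match of letters is a description and says nothing of binding in these cells.

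Of the other activators, PSME3 stood out. It codes for the nuclear activator that works without ubiquitin, and it read 14.76 and 13.78 in OPM2 and 13.42 and 12.72 in the KMS11-labelled cells. Treated cells were below their controls in both lines (changes of -0.98 and -0.70, mean -0.84, SE 0.189, 2 pairs), with a limma adjusted p of 0.334 that did not pass. PSME4, an activator known from sperm development in mice, read 12.01 and 11.90 in OPM2 and 12.82 and 12.30 in the KMS11-labelled cells (-0.11 and -0.52). PSMF1, which inhibits the core in the test tube, had the same signs as most core subunits, with 10.10 and 9.61 in OPM2 and 10.31 and 10.78 in the KMS11-labelled cells (-0.49 and 0.47).

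Assembly factors did not share one direction. Of the 7, 4 read lower in both lines (PSMD9 and PSMG4 partly from values under background), 2 higher in both and 1 lower in OPM2 and higher in the KMS11-labelled cells, and the medians were -0.01 and -0.08. PSMG1 and PSMG2 work as a pair that builds the alpha ring, yet their values went apart. PSMG1 read 10.50 and 9.34 in OPM2 and 11.79 and 11.50 in the KMS11-labelled cells (-1.16 and -0.29, limma adjusted p = 0.422). PSMG2 read 10.50 and 11.02 in OPM2 and 9.58 and 10.34 in the KMS11-labelled cells (0.52 and 0.76, limma adjusted p = 0.358), so treated cells were above their controls in both lines. PSMG3 and PSMG4 form a second pair at the alpha ring. PSMG3 read 7.82 and 7.81 in OPM2 and 8.33 and 8.02 in the KMS11-labelled cells. PSMG4 read 6.83 and 6.57 in OPM2 and 6.85 and 6.18 in the KMS11-labelled cells, and both treated values were under background.

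The chaperones PSMD5, PSMD9 and PSMD10 help to build the base of the regulatory particle and leave it when it is complete. PSMD10, also known as the oncoprotein gankyrin, read 10.31 and 10.33 in OPM2 and 9.97 and 10.84 in the KMS11-labelled cells (0.02 and 0.87). PSMD5 read 11.09 and 10.83 in OPM2 and 11.70 and 12.10 in the KMS11-labelled cells (-0.26 and 0.40). PSMD9 was nearly level, with 7.37 and 7.36 in OPM2, the latter under background, and 7.86 and 7.78 in the KMS11-labelled cells.

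The tissue-specific core genes were taken apart from the core. PSMA8, the alpha subunit of the testis, read 9.30 and 8.10 in OPM2 and 8.06 and 7.50 in the KMS11-labelled cells (-1.20 and -0.56, limma adjusted p = 0.354), and both treated arrays were below their controls. PSMB11, the beta subunit of the thymus, read 4.81 to 5.41 and was under background on all 4 arrays. Of the genes that share only the name, PSMC3IP, a recombination factor, had changes of -0.65 and -0.31, and PSME3IP1, a partner of PSME3, had -0.58 and -0.11. The antisense RNAs had mixed values, with 0.05 and -0.80 for PSMA3-AS1 and 0.59 and 0.24 for PSMD6-AS2. The transcript annotated as PSMD5-AS1 (now CUTALP) read 7.84 and 7.24 in OPM2, the latter under background, and 9.58 and 7.63 in the KMS11-labelled cells, a change of -1.95 there beside 0.40 for PSMD5. PSMG3-AS1 was under background on all 4 arrays.

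The second comparison sets the KMS11-labelled cells against OPM2 over control and treated arrays together. The 2 arrays of a line are its control and its treated sample, so p-values and SEs do not measure the spread between cultures of a line. By limma, 8 of 44 subunits were higher in OPM2 (18.2%), against 8.28% of all genes, and 1 was higher in the KMS11-labelled cells (2.27%), against 10.8%. Signal level bears on these shares too. Among genes tested with a mean signal above 9, 12.5% passed as higher in OPM2 and 16.5% as higher in the KMS11-labelled cells. The 37 subunits above that level gave 7 (18.9%) and 1 (2.7%). The median difference, KMS11-labelled minus OPM2, was -0.26 over the 44 and -0.08 over all genes. It was -0.81 for the non-ATPases, of which 8 of 9 read lower in both pairs of arrays and 4 passed the test. For the core it was -0.13, for the ATPases -0.10 and for the assembly class 0.36.

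**Figure D4:**
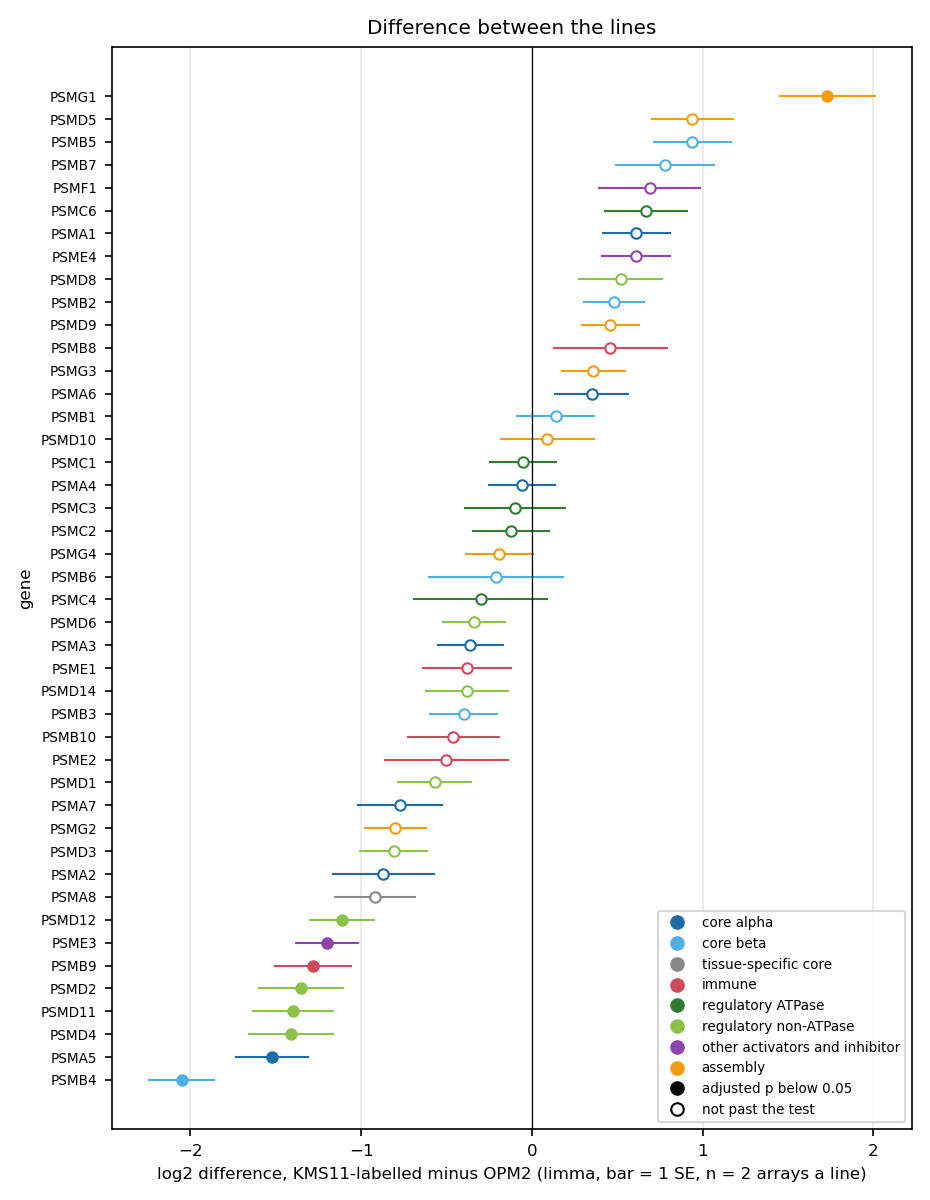
Log2 difference between the lines (x axis, KMS11-labelled minus OPM2, limma on the 4 arrays) for the 44 tested proteasome genes (y axis), with a bar of 1 SE and colours by role. Filled points passed an adjusted p below 0.05: 8 to the left, higher in OPM2, from PSMB4 at -2.05 to PSMD12 at -1.11, and PSMG1 to the right at 1.73.

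PSMB4 differed most of the subunits. With the values given above, both its OPM2 arrays lay above both KMS11-labelled arrays (difference -2.05, SE 0.197, limma adjusted p = 0.0141). PSMA5 read 11.12 and 10.58 in OPM2 against 9.35 and 9.31 in the KMS11-labelled cells (difference -1.52, SE 0.217, limma adjusted p = 0.0260). PSMD4, the subunit that receives ubiquitin chains, read 11.49 and 10.94 against 9.72 and 9.89 (-1.41, SE 0.254, limma adjusted p = 0.0393). PSMB4, PSMA5 and PSMD4 are all on chromosome 1, where PSMD4 and PSMB4 have 4 protein-coding genes between them in the RefSeq annotation. The other tested subunit of that chromosome, PSMB2, was higher in the KMS11-labelled cells by 0.48 and did not pass.

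PSMD11, a lid subunit known to promote proteasome assembly in human embryonic stem cells, read 13.96 and 13.65 in OPM2 against 12.24 and 12.57 in the KMS11-labelled cells (-1.40, SE 0.240, limma adjusted p = 0.0357). PSMD2, a large scaffold subunit of the base, read 12.23 and 12.04 against 10.53 and 11.05 (-1.35, SE 0.252, limma adjusted p = 0.0421). PSMD12 differed by -1.11 (SE 0.193, limma adjusted p = 0.0367) and PSME3 by -1.20 (SE 0.189, limma adjusted p = 0.0309). On chromosome 17, which holds PSMD11, PSMD12 and PSME3, all 6 tested subunits had lower values in the KMS11-labelled cells (median -0.96), also PSMD3 at -0.81, PSMB3 at -0.40 and PSMB6 at -0.21, which did not pass. Of the 972 tested genes of chromosome 17, 61.1% were lower in the KMS11-labelled cells (median -0.12) and 5.14% passed as higher in OPM2. On chromosome 1 these shares were 58.2% and 10.3% of 1700 genes. The 7 on chromosome 14 were split, 4 lower and 3 higher, and none passed.

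PSMB9 was the immune gene past the test, with a difference of -1.28 (SE 0.229, limma adjusted p = 0.0390). Its KMS11-labelled values of 6.45 and 6.89 lay close to the background of those arrays (6.33 and 6.48), so the size of this difference is uncertain. PSMB8 at 0.46, PSMB10 at -0.46, PSME1 at -0.38 and PSME2 at -0.50 did not pass. The assembly factor PSMG1 was higher in the KMS11-labelled cells by 1.73 (SE 0.283, limma adjusted p = 0.0331). Its partner PSMG2 lay on the other side at -0.80 without passing (limma adjusted p = 0.0623), so the pair differed in direction here as after treatment. On chromosome 18, which holds PSMG2, 83% of 241 tested genes were lower in the KMS11-labelled cells (median -0.57) and 29% passed as higher in OPM2. On chromosome 21, which holds PSMG1, these values were 57.6% of 229 genes (median -0.07) and 1.75%. The part of this in the difference of the pair was not tested. PSMB5 and PSMD5, each at 0.94, did not pass as deposited (limma adjusted p = 0.0704 and 0.0770). The calls of PSMB9, PSMD2, PSMD4 and PSMD11 were lost when no dim gene was left out, with limma adjusted p of 0.0502 to 0.0589.

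Genes that work with the proteasome were listed beside it. Of 20 measured partners none passed for treatment (0% of all genes). By the line test 7 were higher in OPM2, against 8.28% of all genes, none was higher in the KMS11-labelled cells, against 10.8%, and 13 did not pass. After treatment 5857 of all 16790 genes read higher in both lines and 4682 lower in both, with 3218 and 2711 in the opposite directions. Among the 20 partners 7 read higher in both lines, 7 lower in both and 6 in opposite directions. The 4 with the largest line difference were ZFAND5, known to activate the proteasome in wasting muscle of mice (-2.08, limma adjusted p = 0.0118), the shuttle factor UBQLN4 (-2.02, 0.0129), the ubiquitin ligase UBE3C, which extends chains at the proteasome (-1.88, 0.0137), and the deubiquitinase USP14 (-1.80, 0.0141). After treatment, UBE3C read 11.91 and 10.85 in OPM2 and 9.99 and 9.02 in the KMS11-labelled cells (-1.06 and -0.97, limma adjusted p = 0.325). ZFAND5 read 10.79 and 11.56 and then 8.73 and 9.45 (0.77 and 0.72, limma adjusted p = 0.337). AKIRIN2, known to carry proteasomes into the nucleus and named here after its values were seen, read 10.19 and 11.22 and then 9.95 and 10.84 (1.03 and 0.89, limma adjusted p = 0.325).

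NFE2L1, the transcription factor known to raise proteasome genes when proteasome activity drops, read 10.47 and 10.87 in OPM2 and 9.21 and 9.63 in the KMS11-labelled cells. Its changes of 0.40 and 0.42 did not pass (limma adjusted p = 0.442), and its line difference of -1.25 did (limma adjusted p = 0.0251). Of the 5 tested genes of proteasome gene control, 3 read higher in both lines and none lower in both. Over all 16790 genes tested these counts were 5857 and 4682. The 3 measured ubiquitin genes, UBB, UBA1 and UBA6, passed neither test, and UBA1, the main ubiquitin-activating enzyme, had changes of -0.48 and -0.12. Of 12 interferon and antigen-processing genes none passed for treatment (0% of all genes), and 10 read lower in OPM2, against 47.5% of all genes and 66.1% of those above a signal of 9. For 3 of the 10, IRF1, IRF8 and NLRC5, the values were too close to background for a direction, which leaves 7. TAP1, the neighbour of PSMB9, read 8.20 in untreated OPM2 cells and 7.30 (below background) in treated ones, lower by at least 0.81, and 6.27, under background, and 6.56 in the KMS11-labelled cells. SPI1, a myeloid and B cell transcription factor, was the one of these 12 past the line test (limma adjusted p = 0.0303), with 7.38 and 7.32 in the KMS11-labelled cells and values under background in OPM2.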

How the data were processed

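RNA of 4 samples was measured on whole-transcript arrays. Per the labels' protocols, total RNA was made into biotinylated sense-strand DNA. The authors deposited log2 signal values per transcript cluster, and the submitters' processing notes name the Transcriptome Analysis Console. How signals were summarized and normalized, and on which build, is not given in the sources used here. Values of 2.49 to 19.74 were taken as log2. Every value column belongs to a labelled sample.

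Names came from the platform's annotation table, with symbols updated from RefSeq (GRCh38.p14, names and promoter windows only). Of 65528 clusters, 22755 had 1 symbol, 1389 had more and were not named, and 41384 had none here. The brightest cluster stood for a gene. The 25% of 22393 genes with the lowest mean (at most 5.40) were left out, which left 16790. In R 4.3.3, limma 3.58.1 fitted line and agent to the 4 arrays (1 residual and 2.79 prior degrees of freedom), two-sided, with Benjamini-Hochberg adjustment over all genes tested. The fit was tried on simulated data with the same planted change in both lines, a setting without the opposite signs seen here. In the data the smallest limma adjusted p for treatment over all genes tested was 0.325. The number of arrays limits the precision. Where 1 of 2 arrays read under background, a change is a bound against it.

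Named genes were those of the immune, assembly, activator and active-site classes, those past a test, and the extremes of each other class. From each list of other pathway genes, those past the test (at most 4) or the leading shared changes were named. The members, classes and lists were chosen with earlier results of these data known, and the level of 9 after the data were seen. Alternatives were 3 scalings, 2 filters, the mean of clusters, another prior, no line term and a stricter background.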

Additional observations from a re-analysis of the deposited data

Results flagged for a closer look

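Within each line there is 1 control and 1 treated array, and several results had opposite signs in the lines, treated minus control. This difference is the model's only residual and was not tested. The change in the KMS11-labelled cells exceeded that in OPM2 by 0.58 for the median of all 44 subunits, by 0.52 for the core, 0.60 for the regulatory particle and 0.90 for the immune class. Opposite signs were seen for 29 single genes. The difference was 1.39 for PSMB6 and PSMC4, 1.12 for PSMB8, 0.96 for PSMA2 and PSMF1, 0.94 for PSMC3, 0.92 for PSMB7 and 0.82 for PSMB10. It was 0.77 for PSME1, 0.72 for PSMD4, 0.71 for PSMD2 and PSMA7, 0.68 for PSMC6, PSMD8 and PSMD14, 0.66 for PSMD5 and 0.64 for PSMD11. Smaller differences were 0.59 for PSMB5 and PSMB1, 0.58 for PSMB9, 0.57 for PSMC2, 0.52 for PSMA6, 0.51 for PSMD1, 0.40 for PSMA1, 0.38 for PSMB3 and PSMD3, 0.37 for PSMA4 and PSMC1, and 0.22 for PSMB2. PSMB8 and PSMB10 were under background on the treated OPM2 array, which also enters the immune median, so these values rest on readings without a settled size. That array had the highest median (6.07) and background (7.39) of the 4, and the part of this in the differences was not tested.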

How the results depend on the processing

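No subunit passed the treatment test under any of the 8 alternatives to that fit. Under quantile normalization, median centring and cyclic loess, 3, 3 and 2 subunits were higher in the KMS11-labelled cells and 9, 8 and 8 higher in OPM2, against 1 and 8 as deposited. After dropping the dimmest 50% of genes 2 were higher in the KMS11-labelled cells, and without a filter 4 were higher in OPM2. PSMB5 passed under each scaling and with the lowest 50% left out, PSMD5 under quantile normalization and median centring, and PSMG2 under quantile normalization. The OPM2 assembly median of -0.01 moved to -0.17, -0.33 and -0.13 under these scalings, and the KMS11-labelled one of -0.08 turned to 0.11 under quantile normalization and was -0.16 under median centring. Subunits at least 2-fold apart numbered 5 in OPM2 and 2 in the KMS11-labelled cells under quantile normalization, 7 in OPM2 under median centring and 1 in the KMS11-labelled cells after cyclic loess. PSMB10 over PSMB7 differed after treatment in OPM2 by -0.34 (quantile) and -0.37 (cyclic loess), and in the KMS11-labelled cells by -0.31 after cyclic loess. The causes were not tested. The medians of all subunits and of the core, regulatory and immune classes kept their sign under each scaling and filter. In OPM2 the median of all genes was itself below 0 under the scalings (-0.17, -0.29 and -0.18), so the sign there does not set the subunits apart. Relative to all genes, the OPM2 core median was -0.29 as deposited, -0.14 (quantile), -0.29 (median centring) and -0.07 (cyclic loess). With background at the 99th percentile of olfactory receptor genes, no change of PSMB8, PSMB9 or PSMB10 in OPM2 could be read. PSMB9 and PSMB10 lay under that level on both KMS11-labelled arrays as well (7.35 before and 7.47 after treatment), so their ratios there rest on values near background. The share of genes lower in OPM2 was 47.5% over all and 66.1% above a signal of 9, a level added after the data were seen. No array could be left out, since 3 arrays leave no residual. The treatment fit pairs the arrays of a line, and without the line in the model 0 subunits passed as well.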
